A study of Homo sapiens with 6 samples.

Results

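The genes described here are 54 components and targets of the interferon response, taken by symbol from a list that runs from the type I interferon receptor to the antiviral proteins it induces. They are 54 of the 28265 gene symbols with counts in each library, and all 54 passed the low-count filter that left 14315 genes for testing. The libraries are total RNA from LN229, an established human glioblastoma cell line. 3 libraries labelled TRIM25 knockdown, which the design text ties to a short hairpin RNA (shTRIM25), are set against 3 libraries labelled WT. The titles of the WT libraries carry the letters NC, which no label explains. The labels do not say whether the WT cells carried a non-targeting hairpin, how many hairpins or clones were used, or whether each library is a culture of its own, so every p-value measures the spread between these libraries only. All cells were grown in serum-containing medium, and no interferon or virus treatment is named.

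Type I interferons bind a receptor made of the IFNAR1 and IFNAR2 chains, whose partner kinases TYK2 and JAK1 phosphorylate STAT proteins. STAT2 and IRF9 are subunits of the transcription factor complex ISGF3, which binds interferon-stimulated response elements (ISREs) in the promoters of many genes. Many tumour lines keep a low level of this programme without added interferon. TRIM25 is an E3 ubiquitin ligase that is itself interferon-induced and acts in the RIG-I pathway upstream of interferon production.

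TRIM25 mRNA was 80.3, 80.0 and 88.5 CPM (counts scaled to TMM-adjusted library size) in the libraries labelled knockdown, against 35.3, 35.8 and 35.6 CPM in the WT libraries. Every library that carries the knockdown label thus stood above every WT library, by 1.22 ± 0.07 on the log2 scale (SE; edgeR adjusted p = 3.23e-09), against the direction of the label. For this reason the groups are called by their labels, and no direction below can be read as an effect of losing TRIM25 mRNA. Totals were 11349865 to 16404725 counts in the libraries labelled knockdown and 13763400 to 15868470 in the WT libraries. The glioma markers used as a check (GFAP, S100B, SOX9, NES, VIM, CD44, EGFR, SOX2 and OLIG2) summed to 4846 to 5193 CPM in the libraries labelled knockdown and 5281 to 5585 CPM in the WT libraries, but the astrocyte gene GFAP had only 2 to 6 counts per library labelled knockdown and 7 to 8 per WT library. The 7 white blood cell markers summed to 3.62 to 5.08 CPM in the libraries labelled knockdown and 2.53 to 2.68 CPM in WT libraries. PTPRC had 2 to 9 counts per library labelled knockdown and 1 to 3 per WT library, and AIF1 had 0 in all. ITGAM was the white blood cell marker that passed, higher in the libraries labelled knockdown, and it had 35, 40 and 41 counts in the libraries labelled knockdown and 13, 20 and 22 in WT libraries. Endothelial markers summed to at most 2.27 CPM in the libraries labelled knockdown and 2.68 CPM in WT libraries, with none called. Epithelial markers summed to 2.33 to 3.50 CPM in the libraries labelled knockdown and 4.40 to 5.44 CPM in WT libraries, without overlap, and KRT14 fell. Of the 7 glioma markers that could be tested S100B, SOX2 and OLIG2 fell, and NES rose. The part of these marker differences in the results below was not tested.

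More of the interferon response genes fell than rose in the libraries labelled knockdown, and the largest falls were in BST2, IFITM1 and IFI27, effectors at the end of the pathway. Of the 54 genes 17 fell, 3 rose and 34 did not pass the test (Benjamini-Hochberg adjusted p under 0.05 over all 14315 genes, edgeR quasi-likelihood test). Across all tested genes 11% fell and 12.2% rose, 23.3% in all, against 31.5% of the members falling and 5.56% rising. The members' median log2 fold change was -0.10, and that of all tested genes was -0.0038. The groups did not overlap in CPM in 18 members that were lower and 4 that were higher, where 19% of all tested genes were apart and lower, 18.3% apart and higher, and 37.3% apart in either direction. The number of falls ranged from 12 to 17 when 1 library was left out. The number of rises was less steady: it was 0 without WT replicate 2 or WT replicate 3, 1 without labelled knockdown replicate 2 and 7 without labelled knockdown replicate 1. In bulk RNA, fewer cells with a transcript and less of it per cell cannot be told apart.

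**Figure D1:**
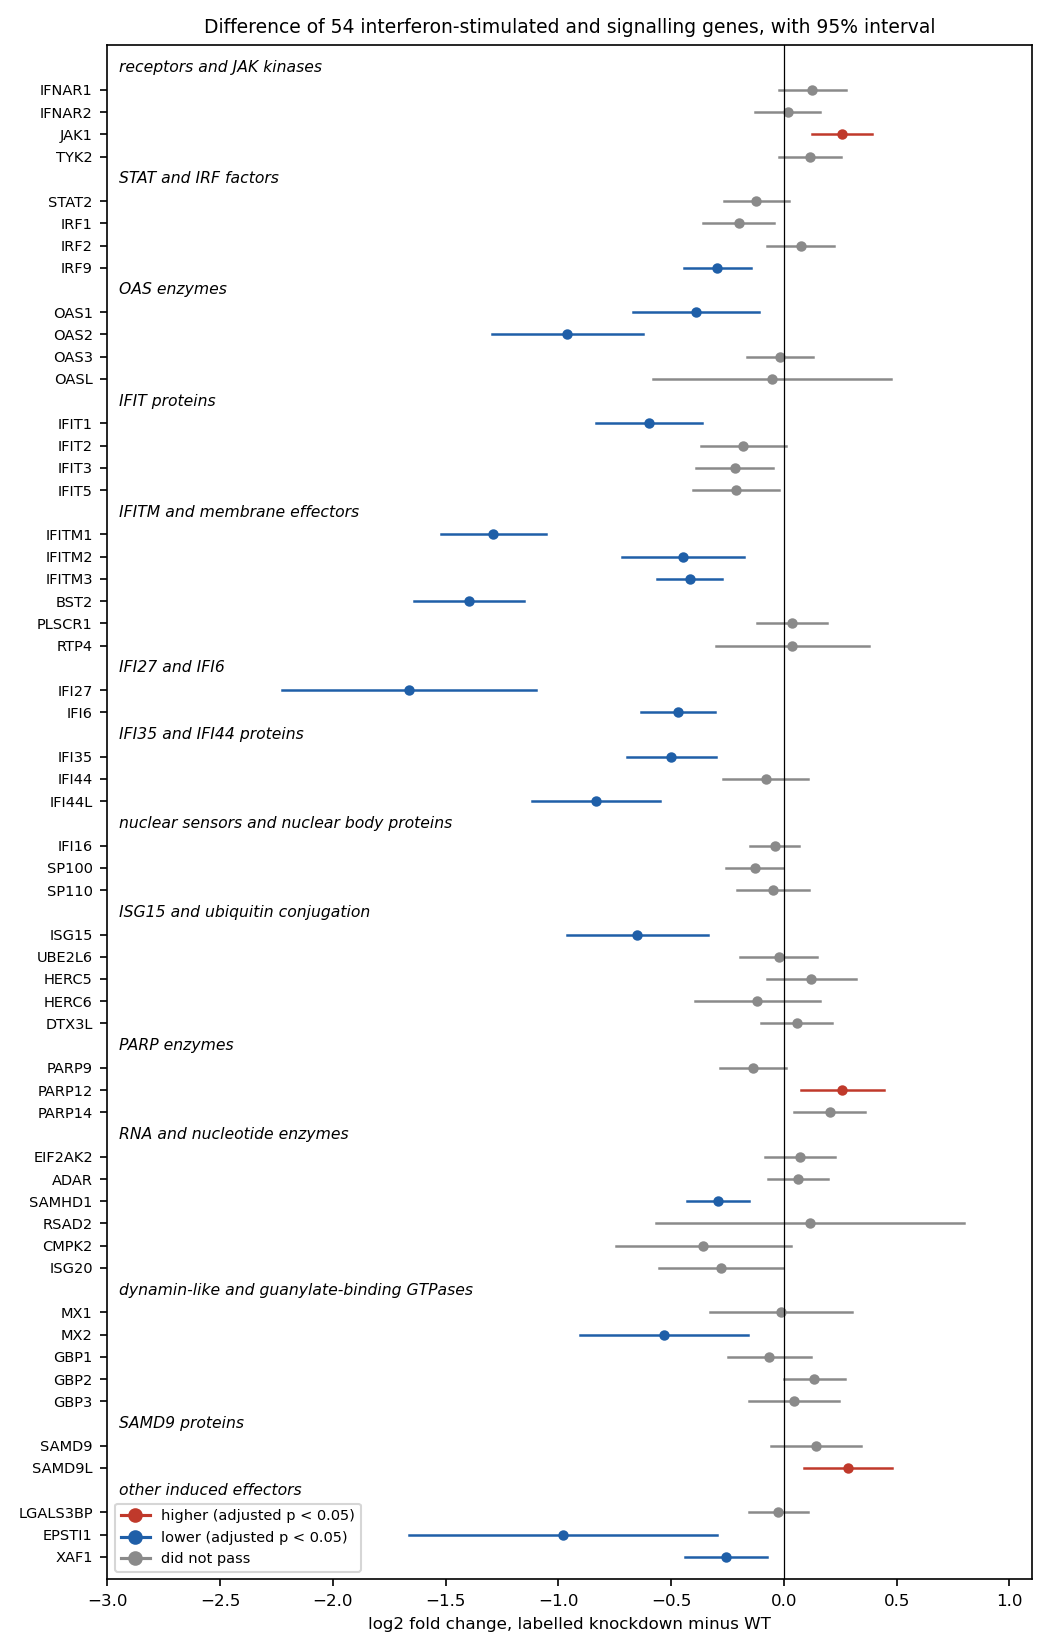
Log2 fold change (labelled knockdown minus WT) of all 54 genes by role, with 95% intervals from the edgeR fit. Blue genes fell, red genes rose and grey genes did not pass; the 3 largest falls are IFI27, BST2 and IFITM1, and the 3 rises are JAK1, PARP12 and SAMD9L.

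The receptor and its kinases were not among the transcripts that fell. IFNAR1 had 74.9, 83.3 and 87.3 CPM in the libraries labelled knockdown, against 78.0, 70.7 and 76.4 CPM in WT libraries. IFNAR2, the second receptor chain, averaged 46.2 ± 1.57 CPM in the libraries labelled knockdown and 45.7 ± 1.2001 CPM in WT libraries (SD, n = 3 each). Both receptor genes overlapped between groups and missed the threshold, with log2 fold changes of 0.13 (95% interval -0.02 to 0.28) and 0.02 (-0.13 to 0.16), although IFNAR1 passed without labelled knockdown replicate 1 (edgeR adjusted p = 0.0231). The annotated read-through transcript AP000295.1 covers 2038 bp of IFNAR2 exon in the same orientation, so IFNAR2 reads may be divided. JAK1, the kinase bound to IFNAR2, had 166, 171 and 182 CPM in the libraries labelled knockdown and 155, 141 and 138 CPM in the WT libraries. Every value of JAK1 lay above every WT value, and it rose by 0.26 ± 0.06 on the log2 scale (SE; edgeR adjusted p = 0.00719). The call was lost without WT replicate 2 (adjusted p = 0.0579) or WT replicate 3 (0.0542). TYK2, the kinase bound to IFNAR1, averaged 74.5 ± 3.77 CPM in the libraries labelled knockdown and 68.7 ± 0.899 CPM in WT libraries (SD, n = 3 each), with groups apart but a log2 fold change of 0.12 that missed the threshold (edgeR adjusted p = 0.211).

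Of the 4 transcription factor genes, IRF9 fell. This DNA-binding subunit of ISGF3 had 38.0, 36.9 and 36.4 CPM in the libraries labelled knockdown, against 46.8, 46.3 and 43.5 CPM in the WT libraries. The groups did not overlap, and the log2 fold change was -0.30 ± 0.07 (SE; edgeR adjusted p = 0.00618). The annotated gene model AL136295.5 covers 1838 of the 1965 bp of IRF9 exon in the same orientation, so reads could be assigned to either. STAT2, its partner, had 84.3, 87.0 and 89.4 CPM in the libraries labelled knockdown, against 95.2, 101 and 87.4 CPM in WT libraries, which overlap (log2 fold change -0.12, 95% interval -0.26 to 0.02). IRF1, an interferon-induced activator, had 61.4, 61.1 and 55.9 CPM in the libraries labelled knockdown, against 61.8, 71.4 and 71.5 CPM in WT libraries. IRF1 was lower in every library labelled knockdown but missed the threshold (log2 fold change -0.20; edgeR adjusted p = 0.0594). It passed without WT replicate 1 (adjusted p = 0.0187) or labelled knockdown replicate 1 (0.0208), with a correction for gene length (0.0201) and with upper-quartile scaling (0.0427). IRF2, which competes with IRF1 for the same sites, had a log2 fold change of 0.08 (-0.07 to 0.22).

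Among the largest falls were those of small membrane proteins that restrict viruses. BST2 (tetherin), which holds budding virions to the cell surface, had 7.83, 7.78 and 7.42 CPM in the libraries labelled knockdown, against 17.7, 19.8 and 23.0 CPM in the WT libraries. The lowest WT value was far above the highest of the other group, and BST2 fell 2.63-fold (log2 fold change -1.40 ± 0.12, SE; edgeR adjusted p = 3.08e-07). IFITM1, which blocks viral fusion mainly at the plasma membrane, had 8.91, 9.37 and 7.24 CPM in the libraries labelled knockdown and 20.6, 19.2 and 21.7 CPM in WT libraries. The groups were again well apart, and IFITM1 fell 2.44-fold (log2 fold change -1.29 ± 0.11, SE; edgeR adjusted p = 3.86e-07). IFITM3, the endosomal family member and the most abundant of the 54 genes per length, had 235, 215 and 197 CPM in the libraries labelled knockdown and 271, 280 and 312 CPM in WT libraries. It fell by 0.42 ± 0.07 on the log2 scale (SE; edgeR adjusted p = 0.000373), or by 0.26 with a correction for gene length (adjusted p = 0.000388). In the authors' TPM, which are scaled per length, IFITM3 averaged 1009 ± 60.2 in the libraries labelled knockdown and 1303 ± 75.1 in WT libraries (SD, n = 3 each).

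IFITM2 had 17.7, 14.1 and 11.04 CPM in the libraries labelled knockdown, against 18.5, 18.7 and 20.5 CPM in the WT libraries. The groups were apart by a narrow margin, and IFITM2 fell by 0.45 ± 0.13 on the log2 scale (SE; edgeR adjusted p = 0.0181). That call was lost without WT replicate 2 (adjusted p = 0.0534), WT replicate 3 (0.0707), labelled knockdown replicate 2 (0.0627) or labelled knockdown replicate 3 (0.104, log2 fold change -0.27). The IFITM genes are close copies: 32% of the 50-base words in annotated IFITM1 transcripts, 34.1% of those in IFITM2 and 17.4% of those in IFITM3 also occur in another gene, so reads can be split between them. Summed over the 3 genes, which does not depend on that split, there were 261, 239 and 215 CPM in the libraries labelled knockdown and 310, 318 and 354 CPM in WT libraries. IFITM1 took 3.36% to 3.92% of the family's counts in the libraries labelled knockdown, and 6.04% to 6.62% in WT libraries, with no overlap. That share depends on how reads common to these genes were counted, which is not given in the sources used here. If such reads were left out, the sum is affected too. PLSCR1, a phospholipid scramblase, averaged 37.5 ± 1.57 CPM in the libraries labelled knockdown and 36.6 ± 1.63 CPM in WT libraries (SD, n = 3 each). RTP4, a chaperone of receptor transport, averaged 5.28 ± 0.822 CPM in the libraries labelled knockdown and 5.12 ± 0.722 CPM in WT libraries (SD, n = 3 each). Neither passed: the log2 fold change was 0.04 for both, with 95% intervals of -0.12 to 0.19 for PLSCR1 and -0.30 to 0.38 for RTP4.

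**Figure D2:**
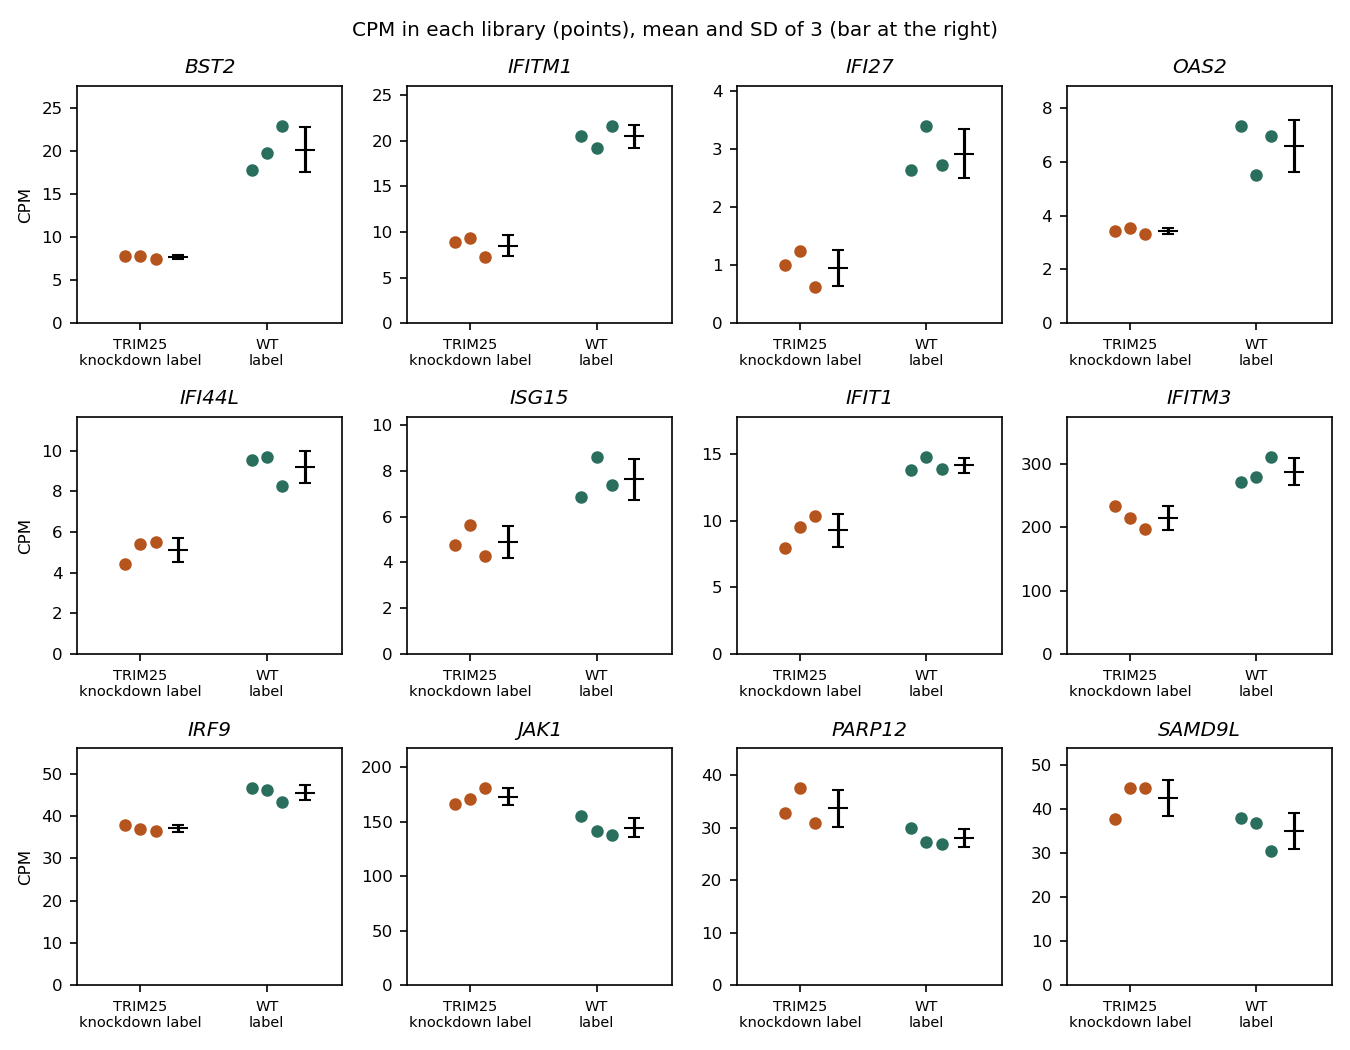
CPM of 12 genes in each library (points), with the mean and SD of 3 libraries beside each group; each vertical axis starts at 0. BST2 lies at 7.42 to 7.83 CPM in the libraries labelled knockdown and at 17.7 to 23.0 CPM in WT libraries, while SAMD9L overlaps between the groups.

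IFI27 and IFI6, short hydrophobic proteins of the same family that are found at mitochondrial membranes, both fell. IFI27 had 12, 14 and 10 counts in the libraries labelled knockdown, against 42, 47 and 43 counts in the WT libraries, so its value rests on few reads. In CPM these were 0.9995, 1.24 and 0.613 in the libraries labelled knockdown, against 2.64, 3.41 and 2.72 in WT libraries, with no overlap. IFI27 fell 3.17-fold, with a log2 fold change of -1.66 and a 95% interval from -2.23 to -1.10 (edgeR adjusted p = 0.000279). IFI6 was among the most abundant members, with 59.1, 57.3 and 53.99 CPM in the libraries labelled knockdown and 69.6, 85.7 and 80.7 CPM in WT libraries. It fell by 0.47 ± 0.08 on the log2 scale (SE; edgeR adjusted p = 0.000373).

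Promoters of these genes are shown because ISREs are the sites through which ISGF3 acts, and to set 3 genes that fell beside a gene that did not pass and a gene that rose. Each sequence is the 250 bases before the annotated start in RefSeq (GRCh38.p14, another build than that of the counts), 5′ to 3′ on the gene's strand. Capitals mark matches to GAAANNGAAA, the ISRE core, on either strand.
IFI27, chr14:94110486-94110735, plus strand: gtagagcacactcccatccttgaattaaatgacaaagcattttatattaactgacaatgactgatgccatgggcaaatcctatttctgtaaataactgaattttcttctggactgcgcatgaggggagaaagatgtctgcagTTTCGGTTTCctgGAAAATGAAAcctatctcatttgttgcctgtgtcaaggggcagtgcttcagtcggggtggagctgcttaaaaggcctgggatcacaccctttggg
BST2, chr19:17405631-17405880, minus strand: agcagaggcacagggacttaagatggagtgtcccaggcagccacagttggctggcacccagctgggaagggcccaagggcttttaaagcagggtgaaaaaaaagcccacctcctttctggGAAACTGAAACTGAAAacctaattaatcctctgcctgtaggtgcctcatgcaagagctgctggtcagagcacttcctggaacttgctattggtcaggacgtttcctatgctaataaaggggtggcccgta
IFITM1, chr11:313790-314039, plus strand: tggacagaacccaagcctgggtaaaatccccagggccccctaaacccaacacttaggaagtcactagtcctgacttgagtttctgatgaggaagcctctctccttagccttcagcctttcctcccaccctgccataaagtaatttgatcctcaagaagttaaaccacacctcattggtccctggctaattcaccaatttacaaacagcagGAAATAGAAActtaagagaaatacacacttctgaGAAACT
RTP4, chr3:187368135-187368384, plus strand: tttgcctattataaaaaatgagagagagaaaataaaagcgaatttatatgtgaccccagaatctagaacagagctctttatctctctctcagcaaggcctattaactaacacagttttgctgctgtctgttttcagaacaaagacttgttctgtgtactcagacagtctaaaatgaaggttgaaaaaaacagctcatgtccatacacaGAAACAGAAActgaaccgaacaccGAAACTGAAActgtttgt
PARP12, chr7:140062952-140063201, minus strand: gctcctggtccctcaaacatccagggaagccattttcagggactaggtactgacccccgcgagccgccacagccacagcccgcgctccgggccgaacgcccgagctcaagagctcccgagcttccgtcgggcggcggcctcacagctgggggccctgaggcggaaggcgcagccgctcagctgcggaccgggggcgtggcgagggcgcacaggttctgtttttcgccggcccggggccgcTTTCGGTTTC
IFI27 and RTP4 each hold a pair of separate matches, BST2 a pair that overlap, and PARP12 a single match that ends at the last base before the start. In IFITM1 the second match runs past the start and is cut off at the edge. A search of 250 bases before to 50 bases after the start found GAAANNGAAA in 33 of 66 windows of the 46 members with a RefSeq promoter entry (50%), against 1255 of 35116 windows of all genes (3.57%). TTCNNNGAA, the core of the GAS element, was in 15 of the 66 windows (22.7%), against 7.66% of all windows. Both motifs occurred together in 10 of the 66 windows (15.2%, against 0.439% of all windows). These belong to 8 members: IFI27, BST2, IFITM1 and EPSTI1, which fell, and PLSCR1, PARP14, MX1 and GBP3, which did not pass. In IFI27 the GAS match TTCCTGGAA overlaps both ISRE matches. A GAS match also shares bases with an ISRE match in BST2, IFITM1, EPSTI1 and MX1, but not in PLSCR1, PARP14 or GBP3. Of the 28 members with a GAAANNGAAA match in any window 9 fell, 1 rose and 18 did not pass. Of the 18 without such a match 5 fell, 2 rose and 11 did not pass. Across all tested genes 11% fell and 12.2% rose. The median log2 fold change was -0.07 with a match and -0.12 without, and the difference was not tested. The search did not count GAAA repeats 1 base apart. Members without a match can hold such repeats, among them OAS1 and IFI35, which fell, and IFI16 and CMPK2, which did not pass. The split therefore does not show which members lack an ISRE. A match of letters does not show that a factor binds there. The members were listed as interferon response genes, so the shares of windows with a motif describe the list and not these libraries.

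The OAS enzymes, which make the oligoadenylates that activate RNase L, differed from member to member. OAS2 had 3.42, 3.54 and 3.31 CPM in the libraries labelled knockdown, against 7.36, 5.51 and 6.96 CPM in the WT libraries. The groups did not overlap, and OAS2 fell 1.95-fold (log2 fold change -0.96 ± 0.16, SE; edgeR adjusted p = 0.00036). OAS1 had 10.7, 12.6 and 8.71 CPM in the libraries labelled knockdown and 14.3, 11.8 and 15.2 CPM in WT libraries, so the groups overlapped. It fell by 0.39 ± 0.13 on the log2 scale (SE; edgeR adjusted p = 0.0411), a call lost without WT replicate 1 (adjusted p = 0.102), WT replicate 3 (0.167) or labelled knockdown replicate 3 (0.210, log2 fold change -0.24) and with DESeq2 (0.0779). OAS3, the most abundant of the family in CPM and per length, averaged 68.9 ± 4.30 CPM in the libraries labelled knockdown and 69.9 ± 3.81 CPM in WT libraries (SD, n = 3 each), a log2 fold change of -0.02 with a 95% interval from -0.17 to 0.13. OASL, an enzymatically inactive paralogue, had only 16 to 24 counts per library labelled knockdown and 21 to 25 per WT library, and its interval was wide (-0.58 to 0.47).

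In the IFIT family all 4 log2 fold changes were negative and 1 passed. IFIT1, which recognises uncapped or incompletely capped RNA, had 7.91, 9.54 and 10.3 CPM in the libraries labelled knockdown, against 13.8, 14.8 and 13.9 CPM in the WT libraries. The groups were apart, and IFIT1 fell 1.51-fold (log2 fold change -0.60 ± 0.11, SE; edgeR adjusted p = 0.00104). IFIT2, IFIT3 and IFIT5 had log2 fold changes of -0.18, -0.22 and -0.21 and overlapped between the groups, with edgeR adjusted p values of 0.159, 0.0601 and 0.100. IFIT3, which forms a complex with IFIT1 and stabilises it, passed without labelled knockdown replicate 2 (adjusted p = 0.0360) and with upper-quartile scaling (0.0425). IFIT3 averaged 36.4 ± 3.70 CPM in the libraries labelled knockdown and 42.2 ± 1.57 CPM in WT libraries (SD, n = 3 each).

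**Figure D3:**
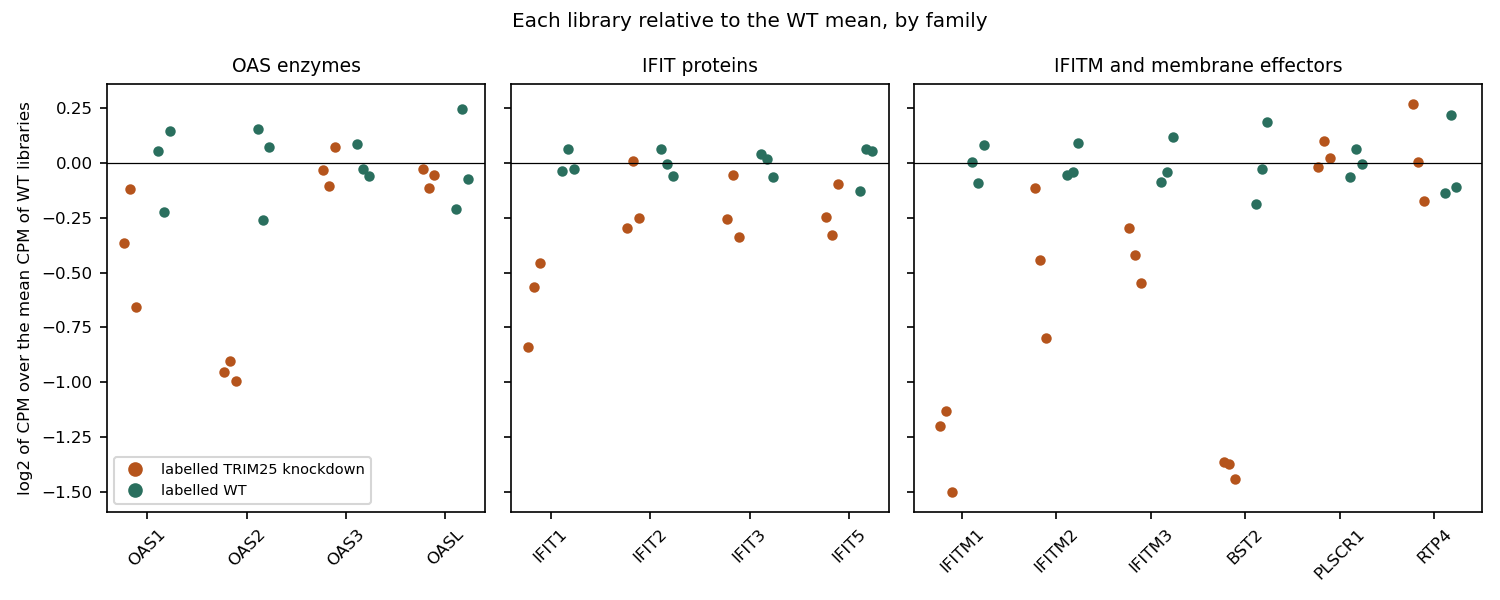
Log2 of each library's CPM over the mean of the WT libraries for the OAS, IFIT, and IFITM and membrane genes, labelled knockdown libraries at the left of each pair. OAS2, IFITM1 and BST2 lie well below 0 in all 3 libraries labelled knockdown, while OAS3, PLSCR1 and RTP4 scatter around 0.

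By role, the median log2 fold change was 0.12 for the receptors and kinases (0 fell and 1 rose of 4), -0.16 for the STAT and IRF factors (1 of 4 fell), -0.22 for the OAS enzymes (2 of 4 fell), -0.21 for the IFIT proteins (1 of 4 fell) and -0.43 for the IFITM and membrane effectors (4 of 6 fell). The IFITM and membrane genes were the shortest of these, with a median of 865.5 bp, and with a correction for gene length their median log2 fold change was -0.28, against 0.0783 for the receptors and kinases. Of all tested genes 11% fell and 12.2% rose, 23.3% in all. A role with 1 call among 4 genes (25%) is near that share. The role values are descriptions of small groups, and the differences between them were not tested.

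Of the 5 genes of ISG15 and ubiquitin conjugation, ISG15 fell and 4 did not pass (20% called, against 23.3% of all tested genes). Differences between them were not tested. ISG15, the ubiquitin-like protein, had 57, 64 and 70 counts in the libraries labelled knockdown and 109, 119 and 117 counts in WT libraries, which is 4.75, 5.66 and 4.29 CPM in the libraries labelled knockdown, against 6.86, 8.63 and 7.40 CPM in WT libraries. The groups did not overlap, and ISG15 fell 1.57-fold (log2 fold change -0.65 ± 0.15, SE; edgeR adjusted p = 0.00441). Its conjugating enzyme gene UBE2L6 averaged 33.8 ± 2.78 CPM in the libraries labelled knockdown and 34.3 ± 1.73 CPM in WT libraries (SD, n = 3 each). The ligase genes HERC5, HERC6 and DTX3L had log2 fold changes of 0.12, -0.12 and 0.06, and none of UBE2L6, HERC5, HERC6 or DTX3L passed (edgeR adjusted p from 0.375 to 0.863). The 95% interval of HERC6 ran from -0.40 to 0.16.

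DTX3L shares its promoter region with PARP9, its partner protein, and 217 bp of exon on opposite strands. PARP9 had 44.4, 46.0 and 49.2 CPM in the libraries labelled knockdown and 50.9, 50.8 and 52.2 CPM in WT libraries, apart but short of the threshold (log2 fold change -0.14; edgeR adjusted p = 0.160). With a correction for gene length PARP9 passed (log2 fold change -0.25, adjusted p = 0.00492). PARP12, a mono-ADP-ribosyltransferase that restricts RNA viruses, had 32.7, 37.6 and 30.8 CPM in the libraries labelled knockdown and 30.0, 27.3 and 26.8 CPM in WT libraries. The groups were apart, labelled knockdown replicate 3 by only a narrow margin, and PARP12 rose by 0.26 ± 0.09 on the log2 scale (SE; edgeR adjusted p = 0.0399). The rise was not called without WT replicate 2 (adjusted p = 0.142), WT replicate 3 (0.149) or labelled knockdown replicate 2 (0.231), with DESeq2 (0.0621) or with upper-quartile scaling (0.0567). PARP14, a related macrodomain enzyme, missed the threshold with overlapping groups (log2 fold change 0.20; edgeR adjusted p = 0.0568). It passed without WT replicate 1 (adjusted p = 0.0231) or labelled knockdown replicate 1 (0.00692) and without the low-count filter (0.0344).

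IFI44L fell while its neighbour and paralogue IFI44 did not pass. IFI44L had 4.41, 5.39 and 5.52 CPM in the libraries labelled knockdown, against 9.56, 9.72 and 8.29 CPM in the WT libraries, with no overlap. It fell 1.78-fold (log2 fold change -0.84 ± 0.13, SE; edgeR adjusted p = 0.000291). IFI44 averaged 32.5 ± 3.88 CPM in the libraries labelled knockdown and 34.5 ± 2.34 CPM in WT libraries (SD, n = 3 each), with a log2 fold change of -0.08 and a 95% interval from -0.27 to 0.11. IFI35, a leucine zipper protein that partners NMI, had 18.9, 16.1 and 15.8 CPM in the libraries labelled knockdown and 22.4, 24.2 and 24.99 CPM in WT libraries. Its groups were apart, and it fell by 0.50 ± 0.09 on the log2 scale (SE; edgeR adjusted p = 0.00103).

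Among enzymes that act on RNA or nucleotides, SAMHD1 fell. This dNTP hydrolase, which starves reverse transcription, had 53.2, 57.2 and 53.6 CPM in the libraries labelled knockdown, against 67.9, 66.7 and 65.9 CPM in the WT libraries. The groups were apart by a wide margin relative to their spread (log2 fold change -0.29 ± 0.07, SE; edgeR adjusted p = 0.00403). SAMHD1 shares 1159 bp of exon with TLDC2 on the opposite strand, and the strand setting of the counting is not given in the sources used here. EIF2AK2, the kinase PKR that halts translation on double-stranded RNA, averaged 120 ± 13.0 CPM in the libraries labelled knockdown and 114 ± 4.14 CPM in WT libraries (SD, n = 3 each). ADAR, which edits double-stranded RNA, averaged 370.1 ± 18.1 CPM in the libraries labelled knockdown and 354 ± 28.8 CPM in WT libraries (SD, n = 3 each). Neither passed, with log2 fold changes of 0.07 and 0.06, except EIF2AK2 without labelled knockdown replicate 1 (edgeR adjusted p = 0.0391). The nuclease gene ISG20 and the mitochondrial nucleotide kinase gene CMPK2 had log2 fold changes of -0.28 and -0.36 that missed the threshold (edgeR adjusted p = 0.133 and 0.171). RSAD2 (viperin), which makes a chain-terminating nucleotide, had 9, 9 and 18 counts in the libraries labelled knockdown and 14, 13 and 11 counts in WT libraries, and the 95% interval of its log2 fold change ran from -0.57 to 0.80 at this depth.

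MX1 and MX2, dynamin-like GTPases that act on viral nucleocapsids, were both low in these cells. MX1 averaged 5.54 ± 0.285 CPM in the libraries labelled knockdown and 5.59 ± 0.857 CPM in WT libraries (SD, n = 3 each; log2 fold change -0.01, 95% interval -0.33 to 0.30). MX2 had 40, 36 and 54 counts in the libraries labelled knockdown and 63, 63 and 90 counts in WT libraries, which is 3.33, 3.18 and 3.31 CPM in the libraries labelled knockdown, against 3.96, 4.57 and 5.69 CPM in WT libraries. The groups did not overlap, and MX2 fell by 0.53 ± 0.18 on the log2 scale (SE; edgeR adjusted p = 0.0369). That call was lost without WT replicate 2 (adjusted p = 0.0812), WT replicate 3 (0.215), labelled knockdown replicate 2 (0.107) or labelled knockdown replicate 3 (0.0781), with DESeq2 (0.105) and with limma-voom (0.0513). The guanylate-binding protein genes GBP1, GBP2 and GBP3, better known as interferon gamma targets, had log2 fold changes of -0.06, 0.13 and 0.04, and none passed, although GBP2 was higher in every library labelled knockdown than in any WT library. Between 4.76% and 10.2% of their 50-base words occur in other genes.

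The paralogues SAMD9 and SAMD9L, which restrict poxviruses and slow translation, both had positive log2 fold changes. SAMD9L had 37.8, 44.9 and 44.8 CPM in the libraries labelled knockdown, against 37.9, 36.8 and 30.4 CPM in the WT libraries, so labelled knockdown replicate 1 lay within the WT range. SAMD9L rose by 0.28 ± 0.09 on the log2 scale (SE; edgeR adjusted p = 0.0342). The call was lost without WT replicate 2 (adjusted p = 0.0690), WT replicate 3 (0.200), labelled knockdown replicate 2 (0.145) or labelled knockdown replicate 3 (0.0921), and with the correction for gene length (0.0713). SAMD9 had 41.7, 51.5 and 58.4 CPM in the libraries labelled knockdown, against 48.5, 44.7 and 44.8 CPM in WT libraries, and passed only in the fit without labelled knockdown replicate 1 (adjusted p = 0.00497).

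None of the 3 nuclear members passed. IFI16, a nuclear DNA sensor, averaged 606 ± 25.3 CPM in the libraries labelled knockdown and 624 ± 21.7 CPM in WT libraries (SD, n = 3 each), with a 95% interval of its log2 fold change from -0.15 to 0.07. The nuclear body genes SP100 and SP110 had log2 fold changes of -0.13 and -0.05. SP100 lay apart between the groups, at 90.8, 94.8 and 94.0 CPM in the libraries labelled knockdown, against 103, 104 and 99.4 CPM in WT libraries, and passed once gene length was corrected for (log2 fold change -0.24, edgeR adjusted p = 0.00202).

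Of the remaining effectors, XAF1, a proapoptotic partner of XIAP, had 22.2, 25.4 and 22.0 CPM in the libraries labelled knockdown and 27.6, 29.4 and 25.8 CPM in WT libraries. The groups were narrowly apart, and XAF1 fell by 0.26 ± 0.09 on the log2 scale (SE; edgeR adjusted p = 0.0414), a call lost without WT replicate 1 (adjusted p = 0.0841), WT replicate 2 (0.189), labelled knockdown replicate 1 (0.0528) or labelled knockdown replicate 3 (0.132) and with DESeq2 (0.0912). It shares 2535 bp of exon with PRAL on the opposite strand. EPSTI1 had 15, 10 and 11 counts in the libraries labelled knockdown and 19, 25 and 38 counts in WT libraries, and its groups overlapped in CPM. EPSTI1 fell by 0.98 ± 0.32 on the log2 scale (SE; edgeR adjusted p = 0.0372), and the call was lost without WT replicate 2 (0.0961), WT replicate 3 (0.208), labelled knockdown replicate 2 (0.105) or labelled knockdown replicate 3 (0.163) and with DESeq2 (0.0919). LGALS3BP, a secreted scavenger-receptor-domain protein, averaged 1132 ± 76.9 TPM in the libraries labelled knockdown and 1114 ± 36.1 TPM in WT libraries (SD, n = 3 each), and did not pass (log2 fold change -0.02).

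The members that fell included both abundant and scarce transcripts. In mean TPM over all libraries the order began with IFITM3 (1156), LGALS3BP (1123), IFI16 (490.0), IFI6 (227) and ADAR (145). It ended with OAS2 (2.30), OASL (2.02), EPSTI1 (1.204) and RSAD2 (0.714). The order of the first pair depended on the group: LGALS3BP was the higher in the libraries labelled knockdown and IFITM3 in WT libraries. The 54 genes together took 0.379% to 0.386% of all counts in the libraries labelled knockdown and 0.398% to 0.406% in the WT libraries.

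Gene length moved with the result. The length that the deposited FPKM implies had a median of 1626 bp among the 17 genes that fell and of 3959 bp among the 34 that did not pass, and the 3 that rose were 3021, 5556 and 7150 bp long. Of the 13 members under 2000 bp 9 fell and 0 rose, against 15.9% and 3.41% of all tested genes under that length. Of the 41 longer members 8 fell and 3 rose, where 9.71% and 14.6% of all longer genes did. Over all 14315 genes, Spearman's rho of fold change with length was 0.30, a description across genes, which are not independent replicates. Libraries of the same group also differed along length: their deviations from the group mean had a rho of -0.383 in labelled knockdown replicate 1 and 0.379 in labelled knockdown replicate 3, and of 0.41 in WT replicate 1 and -0.359 in WT replicate 3. When each library was corrected for its own trend with length, 20 members fell and 2 rose: all 17 falls kept their call, IRF1, SP100 and PARP9 were added, and SAMD9L was lost. BST2, IFITM1 and IFI27 then had log2 fold changes of -1.27, -1.13 and -1.52 (edgeR adjusted p = 7.42e-09, 4.32e-08 and 0.000194).

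**Figure D4:**
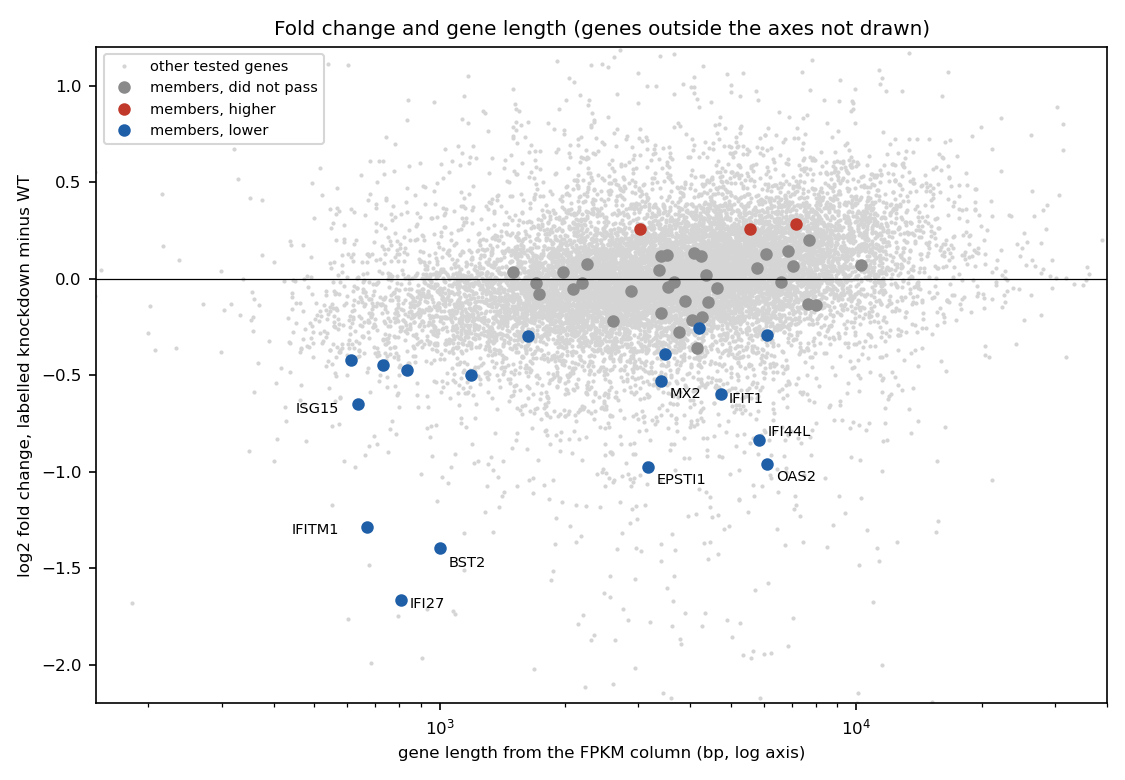
Log2 fold change (labelled knockdown minus WT) against gene length on a log axis, with members that fell in blue, that rose in red and that did not pass in dark grey, over the other tested genes in pale grey (genes beyond the axes are not drawn). Most members under 2000 bp lie below 0, and the genes that fell at greater length include OAS2 (6119 bp), IFI44L (5857 bp) and IFIT1 (4728 bp).

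Of the interferon genes looked at, all but IFNE were nearly undetected. IFNB1 had 0 counts in every library labelled knockdown and 2, 0 and 0 counts in WT libraries, and IFNA1 had 1 count in all, in a WT library. A count of 0 allows up to 0.264 CPM in the shallowest library, for counting error only. IFNA2, IFNK, IFNL1, IFNL2, IFNL3 and IFNG had 0 counts in all 6 libraries. IFNE, an epithelial type I interferon gene, was the ligand that could be tested, at 2.70 ± 0.653 CPM in the libraries labelled knockdown and 3.40 ± 0.344 CPM in WT libraries (SD, n = 3 each), with groups narrowly apart, and did not pass (edgeR adjusted p = 0.276).

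Among other genes of the pathway 5 fell and 9 rose of 61 tested (8.2% and 14.8%, against 11% and 12.2% of all tested genes). In all, 23% of these genes were called, near the 23.3% of all tested genes. Whether this differs from the members was not tested. The falls numbered 2 without WT replicate 3 or labelled knockdown replicate 2 and 9 without labelled knockdown replicate 1, and the rises 5 without WT replicate 2. Of 15 other signalling genes 13 could be tested, and 1 rose and 3 fell (7.69% and 23.1%, against 12.2% and 11% of all tested genes). SOCS3, a feedback inhibitor of cytokine receptor signalling, had 26.3, 24.9 and 23.4 CPM in the libraries labelled knockdown, against 59.3, 62.2 and 64.0 CPM in the WT libraries. SOCS3 fell 2.49-fold with groups far apart (log2 fold change -1.32 ± 0.08, SE; edgeR adjusted p = 3.23e-09). IRF3, which acts upstream of interferon transcription, fell by 0.32 on the log2 scale, a call lost without WT replicate 3 (edgeR adjusted p = 0.0524) or labelled knockdown replicate 2 (0.0637). IL10RB, the shared receptor chain for interferon lambda, fell by 0.23, and PTPN11, a phosphatase in cytokine signalling, rose by 0.23 (edgeR adjusted p = 0.0292 and 0.0252). Both calls were lost without WT replicate 2 (0.182 and 0.0951), WT replicate 3 (0.0706 and 0.128), labelled knockdown replicate 2 (0.140 and 0.0658) or labelled knockdown replicate 3 (0.0649 and 0.121), and that of IL10RB also with DESeq2 (0.0510) and the length correction (0.0651).

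Of 50 further interferon-stimulated genes outside the 54, 48 could be tested, and 8 rose and 2 fell (16.7% and 4.17%, against 12.2% and 11% of all tested genes). Those that rose included NUB1, an adaptor that sends ubiquitin-like conjugates to the proteasome, at 135 ± 5.33 CPM in the libraries labelled knockdown and 108 ± 0.443 CPM in WT libraries (SD, n = 3 each; log2 fold change 0.33, edgeR adjusted p = 0.00078). SLFN5 and APOL6 rose by 0.38 and 0.39 (edgeR adjusted p = 0.000801 and 0.00188), or by 0.24 and 0.25 with a correction for gene length (0.00114 and 0.00452), and CNP, a cyclic nucleotide phosphodiesterase gene, fell by 0.27 (0.00141). The other rises were PARP11, NLRC5, RNF213, IFIH1 and DDX60, with log2 fold changes of 0.48, 0.44, 0.33, 0.30 and 0.29 under RLE scaling factors. The other fall was TRIM5, at -0.24 under the same factors. IFIH1 and NLRC5 lost their calls without WT replicate 2, and RNF213 without WT replicate 2 or WT replicate 3. DDX60 lost its call without WT replicate 3, labelled knockdown replicate 2 or labelled knockdown replicate 3, and with DESeq2. TRIM5 lost its call without WT replicate 1, WT replicate 2, WT replicate 3 or labelled knockdown replicate 2, and with DESeq2. The median over the 48 genes was -0.01, against -0.10 over the 54 members.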

How the data were processed

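Total RNA from LN229 cells was made into libraries with a strand-marking total RNA kit (per the labels' protocols), 3 libraries labelled TRIM25 knockdown and 3 labelled WT. FastQC, MultiQC, Trim Galore, HISAT2 and the build hg19 are named per the submitters' processing notes. Which program counted the reads, on which annotation and strand, is not given in the sources used here. The deposited counts are whole reads per gene symbol, raw and separate for each library, per the file headers. The authors' FPKM equals the count over a gene length and the column total; lengths derived from it were whole within 0.001 bp for 100% of values. The authors' TPM is the FPKM rescaled to a common total, and only counts were tested.

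With R 4.3.3 and edgeR 4.0.16, filterByExpr left 14315 genes, TMM factors were applied, and glmQLFit and glmQLFTest were fitted over all genes with group as the only term; a gene was called where its p, adjusted by Benjamini-Hochberg, was under 0.05. The SE is the log2 fold change over the square root of F. The members, roles, other lists and tests were chosen with earlier results of these data known; every called member is named, and other members by role. The split at 2000 bp was chosen after seeing the data. 1 older symbol was matched through RefSeq synonyms. The length correction took each gene's log2 CPM minus its mean over all libraries and subtracted each library's lowess trend (span 0.3) of these deviations on log2 length. A trend with length that differs between the groups is thereby removed too. Limma 3.58.1 and DESeq2 1.42.0 served as alternatives. Shared exon and 50-base words come from GENCODE (GRCh38), another build, so no coordinates are taken from it. Libraries of the same group were not duplicates, with a chi-square of 1.95 to 8.54 times its degrees of freedom for each pair.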

Additional observations from a re-analysis of the deposited data

How the results depend on the processing

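Across the 54 members and 15 alternatives, 732 values kept their direction and side of the threshold or, where not called, moved by less than 1 SE, 47 called values lost their call, 16 uncalled values gained a call, 14 uncalled values moved by more than 1 SE, and 0 called values turned round. All 17 falls and 3 rises held with RLE factors and with at least 1 CPM in 3 libraries; DESeq2 kept 15 of the 20 and limma-voom 19. No label says that the library numbers pair the samples. Same-numbered libraries correlated at -0.19, 0.01 and -0.22 in their deviations from the group means. These deviations also followed gene length, so the correlations cannot decide whether libraries were paired. With the replicate number as a block, 1 member rose and 13 fell, 967 genes of all rose and 924 fell, and 3 other pathway genes fell in place of 5; that number was also 3 with DESeq2 and 9 with the length correction. The length correction moved the median of the receptors and kinases to 0.0783 and that of the PARP enzymes to 0.0959, or to 0.0778 and 0.0983 with the replicate block added. It also moved by over 1.5 times the medians of the IFITM and membrane effectors (-0.28), nuclear members (-0.0808) and ISG15 and ubiquitin conjugation genes (-0.0024). The same held for the RNA and nucleotide enzymes (-0.18) and SAMD9 proteins (0.12). With both the block and the length correction IRF9 lost its call (log2 fold change -0.21, edgeR adjusted p = 0.0683), as did IFITM2 (-0.30, 0.0543). With at least 1 CPM in 3 libraries, which drops RSAD2, the median of the RNA and nucleotide enzymes was -0.28 in place of -0.11.

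Leaving out 1 library at a time gave 0 to 7 rises and 12 to 17 falls among members, 930 to 2622 rises and 866 to 2319 falls among all genes (fewest rises without WT replicate 2, fewest falls without labelled knockdown replicate 2), and 5 to 13 rises and 2 to 9 falls among other pathway genes. The role medians ranged from 0.10 to 0.14 for the receptors and kinases, -0.19 to -0.12 for STAT and IRF factors, -0.28 to -0.16 for OAS, -0.28 to -0.19 for IFIT, -0.55 to -0.31 for membrane effectors, -0.0894 to -0.0123 for nuclear members and 0.14 to 0.27 for PARP enzymes. Members under 3 CPM, such as IFI27, EPSTI1, OASL and RSAD2, are limited by depth.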
